A study of Homo sapiens with 6 samples.

Results

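Integrins and laminins were examined in SKOV3 cells, an established human ovarian cancer line, after silencing of the transcription factor KLF5. The genes were taken by symbol, as the protein-coding genes of the deposited table that are named as integrin alpha or beta subunits (ITGA and ITGB) or as laminin alpha, beta or gamma chains (LAMA, LAMB and LAMC). This gave 33 of the 16074 protein-coding genes, in a table of 29185 genes: 14 integrin alpha subunits, 8 integrin beta subunits and 11 laminin chains. ITGA4, ITGA8, ITGAL and LAMB4 were not analysed here, and ITGA2B falls outside the naming rule. Polyadenylated RNA was sequenced from 3 libraries of stable sh-KLF5 cells, labelled as KLF5 knockdown, and from 3 libraries of the sh-NC control line, labelled WT. According to the methods of the study, the knockdown sequence was carried by the lentiviral vector pLKO.1-EGFP-Puro and the stable lines were selected with puromycin, and the labels name a single sh-KLF5 line with no other construct. The labels do not say that the libraries of a group came from separate cultures, so p-values measure only the spread between these libraries, which may be technical.

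Integrins are receptors made of an alpha and a beta subunit that tie the extracellular matrix to the cytoskeleton, and the alpha subunit largely sets which matrix protein is bound. Laminins are trimers of an alpha, a beta and a gamma chain and form the sheet of the basement membrane on which epithelial cells rest. In epithelia the laminin receptor of ITGA6 with ITGB4 anchors cells in hemidesmosomes, whereas ITGA2 with ITGB1 binds collagen and ITGA5 with ITGB1 binds fibronectin. In ovarian cancer, integrins are best known for the attachment of tumour cells to the matrix of the peritoneum.

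KLF5 itself (ENSG00000102554) stood at 4371, 4425 and 4494 normalized counts in the sh-NC libraries 1, 2 and 3 and at 1745, 1440 and 1436 in the sh-KLF5 libraries, so that the labels matched the targeted gene. Normalized counts are read counts that the authors scaled by a factor of each library. The sh-KLF5 mean was 34.8% of the sh-NC mean, with a log2 fold change of -1.53 (standard error, SE, 0.12; adjusted p = 2.47e-07, limma with Benjamini-Hochberg adjustment). Read totals per library ranged from 15852319 to 17543896. The sh-NC libraries differed from each other with a chi-square of 4.32 to 8.41 per degree of freedom (1 is counting error alone) and the sh-KLF5 libraries with 10.4 to 30.4, the widest distances being those of sh-KLF5 library 1. Of the 9 measured markers of ovarian carcinoma epithelium, 5 were lower in sh-KLF5 and 0 higher (limma; 0 higher also at an unadjusted p under 0.05 and with edgeR and DESeq2). KRT7, KRT8, KRT18, MUC16 and MSLN were those that fell, whereas EPCAM, KRT19, PAX8 and ERBB2 were measured and did not pass. Log2 fold changes of the 9 ran from -1.54 to 1.14, the highest being that of a marker that did not pass. The summed epithelial markers ran from 54010 to 66052 normalized counts in sh-NC against from 28512 to 38989 in sh-KLF5. Of 7 fibroblast markers, 6 could be tested and 4 of these were lower. The sums over all 7 were 1123 to 1610 against 402 to 753. Of 4 endothelial markers, 2 could be tested and 1, TEK, was higher (limma, but 0 with edgeR and DESeq2). TEK rose from 7.45 or fewer to 10.7 or more normalized counts. Over all 15803 tested genes, 6.04% were higher and 6.85% lower at an adjusted p under 0.05 (limma). All libraries came from the SKOV3 line. The part of these marker shifts in the results below was not tested. In bulk RNA, fewer cells expressing a marker and less of its RNA per cell cannot be told apart.

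Silencing of KLF5 was accompanied by changes of both signs among integrins and laminins. The laminin receptor subunits ITGA6 and ITGB4, the leukocyte subunit ITGB2 and the laminin chains LAMA5 and LAMB3 were lower in sh-KLF5 cells. The collagen receptor subunits ITGA2 and ITGA11, the fibronectin receptor subunit ITGA5, the vitronectin receptor subunit ITGB5 and the laminin chains LAMA1, LAMA3 and LAMA4 were higher. The calls of ITGA11, ITGB5, LAMA1, LAMA3 and LAMA5 were lost when certain single libraries were left out. The integrin beta subunit and the laminin gamma chain with the highest level per kilobase, ITGB1 and LAMC1, did not pass the test.

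Of the 33 genes, 26 had enough reads to be tested. At an adjusted p under 0.05, 7 were higher and 5 were lower in sh-KLF5, whereas 14 did not pass. Over all 15803 tested genes, 6.04% were higher and 6.85% lower at the same threshold, and 12.9% changed in either direction. The members were chosen by name with earlier results of these data known, so the counts are a description. With a fold change of more than 2-fold added, 2 members were higher (LAMA1 and LAMA4) and 1 was lower (ITGB2). Of all tested genes, 1.9% were higher and 3.37% lower by the same rule. The methods of the study give this fold threshold with p under 0.05 and name no adjustment. At an unadjusted p under 0.05 (limma), ITGA10 was also higher past this fold threshold. ITGA2 and ITGB4 lay just short of that line, at log2 fold changes of 0.99 and -0.999. The median log2 fold change was 0.12 over the 26 tested members and -0.0023 over all tested genes. The groups did not overlap for 10 members that were higher and 5 that were lower, against 15.4% and 15.9% of all tested genes (31.3% in either direction).

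**Figure D1:**
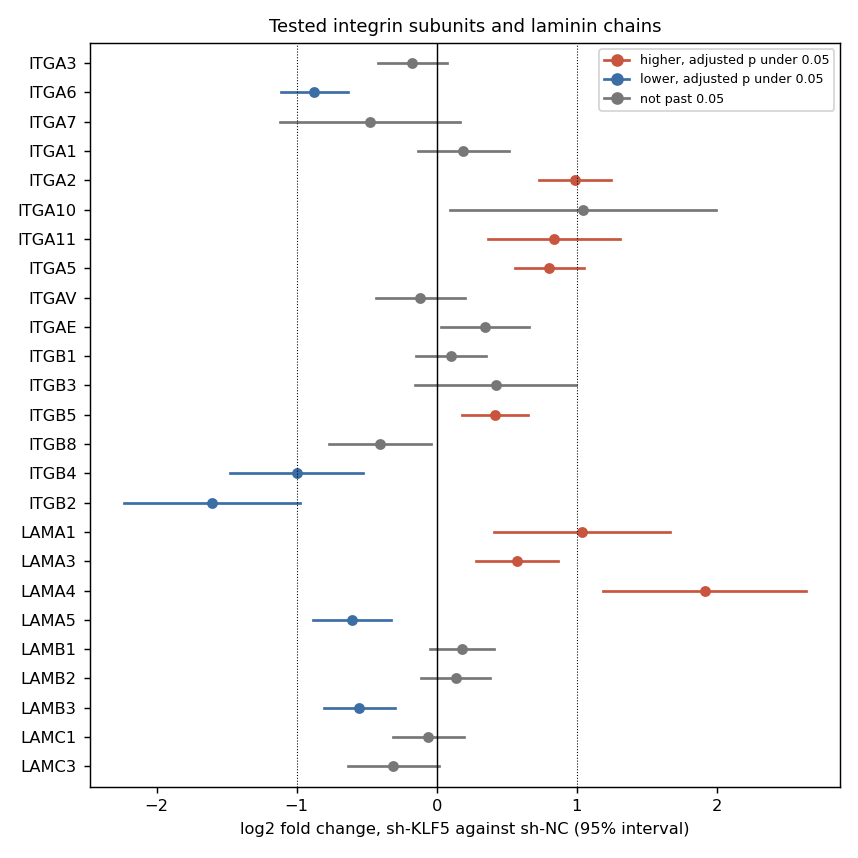
Log2 fold change of the tested integrin and laminin genes described in the text, sh-KLF5 against sh-NC, with 95% intervals from limma. Each row is a gene, colours give the direction of those with an adjusted p under 0.05, and dotted lines mark a log2 fold change of 1 and -1. Changes of both signs are visible within the integrin alpha, integrin beta and laminin alpha families, from -1.61 for ITGB2 to 1.91 for LAMA4.

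The proximal promoters of a few members are shown here because KLF5 is a zinc finger factor that binds GC-rich and CACCC-type boxes, and because ITGA6 and LAMA5, the best measured laminin receptor subunit and laminin chain among those that fell, can be read beside ITGA2 and ITGA5, which rose. The windows, of 300 bases each, lie around gene starts as RefSeq gives them on GRCh38.p14, where 22 of the 33 members had at least 1 window. Some of these starts, such as that of ITGA5 and the downstream one of ITGA6, lie inside the gene as GENCODE gives it. Each is printed 5′ to 3′ on the strand of its gene, and capitals mark matches to CCNCNCCC or its reverse complement, which may overlap each other.
ITGA6, chr2:172427086-172427385, + strand: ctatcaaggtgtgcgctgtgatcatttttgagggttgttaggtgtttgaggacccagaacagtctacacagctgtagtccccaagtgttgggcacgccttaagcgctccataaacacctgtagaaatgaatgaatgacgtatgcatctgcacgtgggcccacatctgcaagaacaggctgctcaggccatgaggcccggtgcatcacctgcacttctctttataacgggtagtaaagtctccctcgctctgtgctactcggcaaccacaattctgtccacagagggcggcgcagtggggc
ITGA6, chr2:172427336-172427635, + strand: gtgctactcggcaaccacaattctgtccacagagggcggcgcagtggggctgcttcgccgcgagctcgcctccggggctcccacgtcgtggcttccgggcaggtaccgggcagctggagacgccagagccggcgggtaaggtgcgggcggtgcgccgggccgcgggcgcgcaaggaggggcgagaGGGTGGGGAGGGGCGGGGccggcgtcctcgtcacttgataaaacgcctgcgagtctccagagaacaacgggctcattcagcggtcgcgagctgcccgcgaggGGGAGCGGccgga
LAMA5, chr20:62367263-62367562, - strand: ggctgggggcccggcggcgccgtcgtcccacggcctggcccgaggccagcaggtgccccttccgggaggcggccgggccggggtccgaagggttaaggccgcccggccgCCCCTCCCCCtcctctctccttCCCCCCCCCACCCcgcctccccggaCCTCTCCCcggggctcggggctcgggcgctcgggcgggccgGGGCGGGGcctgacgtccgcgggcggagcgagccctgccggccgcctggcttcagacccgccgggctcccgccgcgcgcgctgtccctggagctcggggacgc
ITGA2, chr5:52989102-52989401, + strand: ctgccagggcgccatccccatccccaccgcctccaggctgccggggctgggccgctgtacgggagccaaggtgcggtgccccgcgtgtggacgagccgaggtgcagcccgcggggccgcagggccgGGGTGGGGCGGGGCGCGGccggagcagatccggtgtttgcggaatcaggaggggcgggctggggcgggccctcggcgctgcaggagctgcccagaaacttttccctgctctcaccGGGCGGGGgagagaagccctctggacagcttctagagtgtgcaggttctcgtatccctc
ITGA5, chr12:54419217-54419516, - strand: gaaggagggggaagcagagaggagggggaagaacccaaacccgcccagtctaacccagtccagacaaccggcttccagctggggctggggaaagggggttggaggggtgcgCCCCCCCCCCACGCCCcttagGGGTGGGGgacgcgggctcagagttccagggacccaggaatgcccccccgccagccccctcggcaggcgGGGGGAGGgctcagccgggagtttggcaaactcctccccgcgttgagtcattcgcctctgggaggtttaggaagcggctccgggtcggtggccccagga
The upstream ITGA6 window held 0 matches and the downstream one 4, whereas LAMA5 held 7, ITGA2 held 4 and ITGA5 held 6. Of the other changed members, ITGA11, LAMA3, LAMA4 and LAMB3 held 1 in each window, and ITGB5 held 3, 4 and 0. Windows of members that did not pass the test ran from 0 for ITGA1 and ITGAE to 9 for LAMC1. The printed windows therefore do not stand for all changed members. The median over all RefSeq windows of this length was 1. Searched on both strands, CCNCNCCC was present in 56.2% of the 35116 RefSeq windows of the same length, and the GC box CCGCCC, which can overlap it, in 45.0%. A member with a window was counted as matched when any of its windows held a match. By this rule CCNCNCCC was found for 6 of 6 members that rose and 3 of 3 that fell. It was found for 7 of 9 that did not pass the test. CCGCCC was found for 4, 3 and 5 of these members. The 22 members had 29 windows in all, and several windows give a gene more chances of a match. The percentages above are per single window, so they are not a like-for-like background for these counts per gene. A match describes the letters of the window and is not a measured binding site.

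Among the laminin-binding alpha subunits, ITGA6 fell, and ITGA3 and ITGA7 did not pass the test. ITGA6 (ENSG00000091409; GRCh38 chromosome 2, 172427354 to 172506282, + strand) had 2476, 2462 and 2467 normalized counts in the sh-NC libraries and 1443, 1198 and 1415 in the sh-KLF5 libraries. The control libraries were nearly identical and every sh-KLF5 library lay well below them. Its sh-KLF5 mean was 54.8% of the sh-NC mean, with a log2 fold change of -0.87 (SE 0.11, adjusted p = 6.77e-05, limma). ITGA3, a laminin receptor subunit that pairs with ITGB1, had 4620 ± 164 normalized counts in sh-NC against 4112 ± 438 in sh-KLF5 (SD, n = 3), with overlapping groups and a log2 fold change of -0.17 (95% interval -0.42 to 0.07). ITGA7, known from muscle, stayed between 28.5 and 82.8 normalized counts in all 6 libraries, with overlapping groups.

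ITGB4, the subunit that pairs with ITGA6 and carries the hemidesmosome link to keratin filaments, fell as well, at a far lower level. The ITGB4 gene (ENSG00000132470; GRCh38 chromosome 17, 75721328 to 75757818, + strand) had 148.0, 125.1 and 132.6 normalized counts in sh-NC against 73.4, 83.4 and 49.1 in sh-KLF5. All sh-KLF5 libraries lay below all sh-NC libraries, and library 3 was the lowest. The mean in sh-KLF5 was 50.8% of that in sh-NC, with a log2 fold change of -0.999 (SE 0.22, adjusted p = 0.00634, limma). Per kilobase of exon, ITGB4 stood at 20.0 ± 1.7 normalized counts in sh-NC (SD, n = 3), far under the 378 ± 1 of its partner ITGA6 and the 2075 ± 119 of ITGB1, the other partner of ITGA6. Both changes held in each of the 6 fits that left out 1 library, with log2 fold changes of -0.92 to -0.79 for ITGA6 and of -1.15 to -0.78 for ITGB4.

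Of the 4 collagen-binding alpha subunits tested, ITGA2 and ITGA11 rose and 0 fell, against 6.04% higher and 6.85% lower over all tested genes (limma). The count that fell was also 0 at an unadjusted p under 0.05 and with edgeR and DESeq2. ITGA2 (ENSG00000164171; GRCh38 chromosome 5, 52989326 to 53094779, + strand), which binds fibrillar and network collagens, had 1849, 1800 and 1660 normalized counts in sh-NC against 3911, 3655 and 3023 in sh-KLF5. The lowest sh-KLF5 library, number 3, was still far above the highest control. The sh-KLF5 mean was 199% of the sh-NC mean, with a log2 fold change of 0.99 (SE 0.12, adjusted p = 3.59e-05, limma), and it ranged from 0.91 to 1.10 when single libraries were left out.

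ITGA11, a receptor for fibrillar collagen known mainly from fibroblasts, was measured at a low level, with 56.8, 79.8 and 73.2 normalized counts in sh-NC against 109.1, 158.2 and 112.3 in sh-KLF5. The groups did not overlap, and sh-KLF5 library 2 stood highest. Its log2 fold change was 0.84 (SE 0.22, adjusted p = 0.0187, limma). The call was lost without sh-NC library 1 (adjusted p = 0.0981), sh-NC library 3 (0.0533) or sh-KLF5 library 2 (0.104). ITGA1, which binds basement membrane collagen, had 506 ± 47 normalized counts in sh-NC against 585 ± 129 in sh-KLF5 (SD, n = 3). ITGA10, a cartilage collagen receptor, had 18.4 or fewer in every library, with means of 7.50 in sh-NC and 16.2 in sh-KLF5. The ITGA10 groups did not overlap, at a log2 fold change of 1.04 (limma, unadjusted p = 0.0331, adjusted p = 0.148). Neither ITGA1 nor ITGA10 passed the test.

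Among the subunits that bind RGD motifs, the short peptide signal of fibronectin and vitronectin, ITGA5 rose and ITGAV did not pass the test. ITGA5 (ENSG00000161638; GRCh38 chromosome 12, 54395261 to 54419460, - strand), the classical fibronectin receptor subunit, had 3121, 3259 and 3494 normalized counts in sh-NC against 5206, 5747 and 6325 in sh-KLF5. The groups were far apart, with less spread within each than between them. The log2 fold change of ITGA5 was 0.80 (SE 0.12, adjusted p = 0.000155, limma), and 0.73 to 0.87 with single libraries left out. ITGAV, which pairs with several beta subunits, had 4860 ± 673 normalized counts in sh-NC against 4530 ± 1018 in sh-KLF5 (SD, n = 3); its groups overlapped and its log2 fold change was -0.12 (95% interval -0.44 to 0.20). Without sh-KLF5 library 2 this value was 0.020.

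The beta subunits that pair with ITGAV did not move together. ITGB5 (ENSG00000082781), a vitronectin receptor subunit, had 2359, 2460 and 2600 normalized counts in sh-NC against 3543, 3355 and 3022 in sh-KLF5. Each sh-KLF5 library was above each control. The log2 fold change was 0.42 (SE 0.11, adjusted p = 0.0213, limma). Leaving out sh-NC library 1, 2 or 3 or sh-KLF5 library 2 ended this call, at adjusted p = 0.132, 0.110, 0.0507 and 0.0602. ITGB8, whose complex with ITGAV activates latent TGF-beta, had 2198, 1987 and 1633 normalized counts in sh-NC against 1929, 1455 and 1096 in sh-KLF5. These groups overlapped and the log2 fold change of -0.40 did not pass (adjusted p = 0.145, limma), but it passed without sh-KLF5 library 1, at -0.61 (adjusted p = 0.00463), and without the filter on low counts (0.0280). ITGB3, the beta subunit of platelets, had 32.9 to 73.4 normalized counts over the 6 libraries, and 51.6% of its exonic bases are shared with AC068234.1 on the same strand. ITGB6, found in epithelia, had 0 reads in every sh-NC library and 1 or 2 in the sh-KLF5 libraries, all within the 3 reads that a count of 0 allows.

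ITGB1 (ENSG00000150093), the common partner of the laminin, collagen and fibronectin receptors named above, had the highest level per kilobase of exon of all integrin subunits in every library. It had 13264, 12287 and 11875 normalized counts in sh-NC against 14792, 12126 and 13388 in sh-KLF5. The groups overlapped, and the log2 fold change was 0.10 (95% interval -0.14 to 0.35).

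Of the integrin subunits known from leukocytes, ITGB2 (ENSG00000160255; GRCh38 chromosome 21, 44885953 to 44931989, - strand) fell. Normalized counts of ITGB2 stood at 118.2, 64.0 and 84.9 in sh-NC against 26.5, 37.8 and 21.1 in sh-KLF5. No sh-KLF5 library reached the lowest control, and sh-NC library 1 was the highest of the 6. The sh-KLF5 mean was 32.0% of the sh-NC mean, with a log2 fold change of -1.61 (SE 0.30, adjusted p = 0.00139, limma), and -1.83 to -1.38 with single libraries left out. ITGB2 pairs with ITGAL, ITGAM, ITGAX or ITGAD, and the 3 of these measured had at most 17 reads in any library. Among leukocyte markers, PTPRC, the pan-leukocyte phosphatase, had at most 1 read per library, and the summed level of the 5 measured markers overlapped between groups (164 to 229 normalized counts in sh-NC, 200 to 389 in sh-KLF5), most of it from CD14. CD14, the only leukocyte marker with enough reads to be tested, had a log2 fold change of 0.66, which did not pass with limma (adjusted p = 0.0725) and passed as higher with edgeR and DESeq2. ITGB2-AS1, on the opposite strand, covers 4.46% of the exonic bases of ITGB2 and had 5 to 25 reads. ITGAE, whose complex with ITGB7 binds E-cadherin, had 338 ± 11 normalized counts in sh-NC against 435 ± 84 in sh-KLF5 (SD, n = 3) and did not pass (adjusted p = 0.149, limma), and ITGB7 was too low to be tested.

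**Figure D2:**
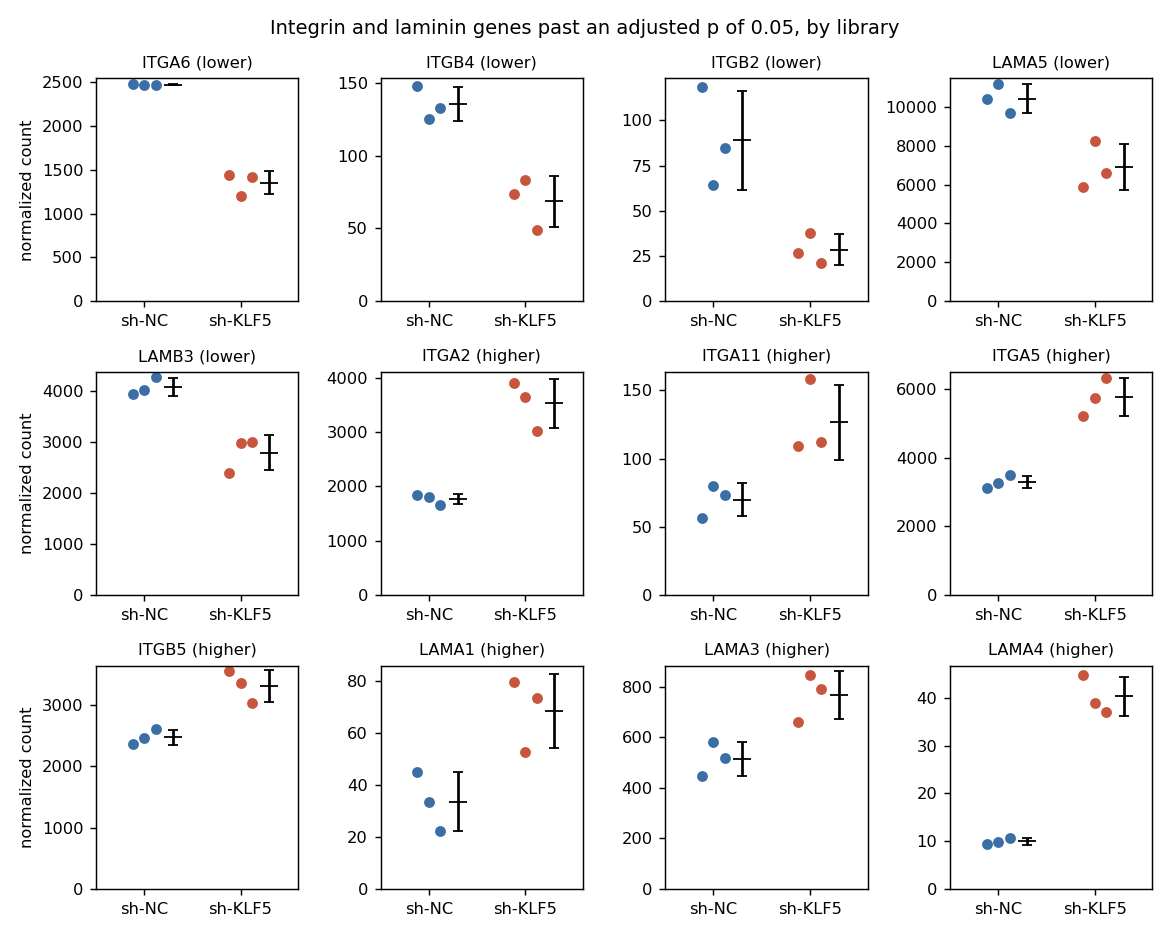
Normalized counts per library for the 12 integrin and laminin genes with an adjusted p under 0.05, with sh-NC in blue, sh-KLF5 in red, and the mean with its SD (n = 3) beside the points. Every axis starts at 0. In each of the 12 panels the groups do not overlap, which the choice of genes by a test on these libraries favours. Of all tested genes, 31.3% do not overlap in either direction. The panels of ITGB4, ITGB2, ITGA11, LAMA1 and LAMA4 stay under 160 normalized counts.

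The laminin alpha chains, which carry the main binding sites for integrins, divided into a single abundant chain that fell and 3 scarcer chains that rose. LAMA5 (ENSG00000130702; GRCh38 chromosome 20, 62307955 to 62367312, - strand), the main alpha chain of mature epithelial basement membranes, had 10371, 11180 and 9671 normalized counts in sh-NC against 5891, 8224 and 6604 in sh-KLF5. The highest sh-KLF5 library, number 2, remained below the lowest control. Its mean was 66.4% of the sh-NC mean, with a log2 fold change of -0.60 (SE 0.13, adjusted p = 0.00518, limma). Of the 6 fits that left out 1 library, it missed the threshold in the fit without sh-NC library 2, at a log2 fold change of -0.55 (adjusted p = 0.0522).

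LAMA3 (ENSG00000053747), the alpha chain of the laminin that anchors hemidesmosomes, had 446, 580 and 518 normalized counts in sh-NC against 661, 846 and 792 in sh-KLF5. The groups were separate, with library 1 the lowest in each. The log2 fold change was 0.57 (SE 0.14, adjusted p = 0.0105, limma), and the call was lost without sh-NC library 1 (0.0817) or sh-KLF5 library 2 (0.0604).

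LAMA4 (ENSG00000112769), a chain of vascular and mesenchymal basement membranes, had 9.31, 9.85 and 10.6 normalized counts in sh-NC against 44.8, 38.8 and 37.1 in sh-KLF5. This corresponded to 10 reads in each control library against 44, 40 and 37. The level in sh-KLF5 was 4.06-fold that in sh-NC, with a log2 fold change of 1.91 (SE 0.34, adjusted p = 0.0011, limma), and 1.84 to 1.97 with single libraries left out. LAMA1, the alpha chain of early embryonic basement membranes, had 44.7, 33.5 and 22.3 normalized counts in sh-NC against 79.5, 52.4 and 73.2 in sh-KLF5. Each sh-KLF5 library was above each control for LAMA1, by a small margin between the nearest of them. Its log2 fold change of 1.04 (SE 0.30, adjusted p = 0.0290, limma) was lost without sh-NC library 2 (0.0780), sh-NC library 3 (0.133), sh-KLF5 library 1 (0.0569) or sh-KLF5 library 3 (0.0730), and 11.1% of its exonic bases overlap genes on the opposite strand. LAMA2, a muscle and nerve chain, had 17 reads or fewer and was not tested.

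Among the laminin beta chains, LAMB3 fell, and LAMB1 and LAMB2 did not pass. LAMB3 (ENSG00000196878; GRCh38 chromosome 1, 209614870 to 209652466, - strand), which assembles with LAMA3 in the hemidesmosome laminin, had 3938, 4029 and 4275 normalized counts in sh-NC against 2397, 2977 and 3004 in sh-KLF5. All sh-KLF5 libraries lay below all controls, and library 1 was the lowest. Its sh-KLF5 mean was 68.4% of the sh-NC mean, with a log2 fold change of -0.55 (SE 0.12, adjusted p = 0.00484, limma), and -0.61 to -0.45 with single libraries left out. LAMB1 and LAMB2, which assemble with several alpha chains, had log2 fold changes of 0.18 (95% interval -0.05 to 0.41) and 0.14 (95% interval -0.11 to 0.38).

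Of the laminin gamma chains, which complete each trimer, LAMC1 and LAMC3 did not pass the test (limma), nor did they with edgeR or DESeq2. LAMC1, the gamma chain of most laminins and the one that binds nidogen, had 7425, 7342 and 7367 normalized counts in sh-NC against 6359, 6847 and 8153 in sh-KLF5. The controls were tightly grouped and the sh-KLF5 libraries lay on both sides of them. LAMC3 had 862 ± 132 normalized counts in sh-NC against 697 ± 121 in sh-KLF5 (SD, n = 3), with overlapping groups.

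Levels of different genes were compared as normalized counts per kilobase of exon, and each gene was expressed as a share of the summed level of its family in the same library. For the 14 integrin alpha subunits this sum rose, without overlap between groups. It was 2199 ± 66 normalized counts per kilobase in sh-NC against 2506 ± 90 in sh-KLF5 (SD, n = 3). A share can therefore fall without a fall in the level of the gene itself. ITGAV, ITGA3, ITGA5, ITGA6 and ITGA2 made up nearly all of the integrin alpha sum. ITGA6 accounted for 16.7%, 17.4% and 17.5% of it in the sh-NC libraries and for 8.47%, 7.53% and 8.75% in the sh-KLF5 libraries. ITGA5 moved from a mean of 19.8% to 30.4% and ITGA2 from 10.2% to 17.8%, with no overlap between groups. In the order of group means, ITGA5 was number 3 in sh-NC against number 1 in sh-KLF5, and ITGA6 went from number 4 to number 5. ITGA3 went from number 2 to number 4 (21.4% to 16.8%, with no overlap), although its normalized counts overlapped between groups. The share of ITGAV, at 26.9% and 21.9%, overlapped between groups. Single sh-KLF5 libraries did not all keep this order. In library 1 ITGAV stood above ITGA5 (26.5% against 26.4%). In libraries 2 and 3 ITGA3 stood above ITGA2 (19.1% against 19.0%, and 16.8% against 15.4%). Across the sh-KLF5 libraries the share of ITGAV ran from 18.5% to 26.5% and that of ITGA2 from 15.4% to 19.0%. For shares, the exact permutation test (two-sided) gave p = 0.1 wherever the groups did not overlap, which is the smallest p that 3 libraries against 3 allow.

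The same calculation in the other families gave ITGB1 78.9% of the integrin beta sum in sh-NC against 77.7% in sh-KLF5, with overlapping groups. Among the laminin alpha chains, LAMA5 made up 95.4%, 94.8% and 94.7% in sh-NC against 88.1%, 89.8% and 88.1% in sh-KLF5, and LAMA3 rose from 4.57% to 9.64%, each without overlap. The summed laminin alpha level per kilobase was 767 ± 56 normalized counts in sh-NC against 544 ± 88 in sh-KLF5 (SD, n = 3), and the sh-KLF5 libraries lay below the controls. LAMB3 contributed 55.3% of the laminin beta sum in sh-NC against 43.0% in sh-KLF5, while LAMB1 stood at 22.2% and 28.7% and LAMB2 at 22.5% and 28.2%. The laminin beta sum itself was lower, at 1574 ± 20 in sh-NC against 1381 ± 106 in sh-KLF5 (SD, n = 3), without overlap. The larger shares of LAMB1 and LAMB2 therefore do not stand for a rise of these genes, which did not pass the test. LAMC1 held 85.4% and 86.8% of the gamma sum, with overlap. When coding length replaced exon length, ITGA5 again went from number 3 to number 1 by group means and ITGA6 from number 4 to number 5. ITGA3 went from number 2 to number 3. In sh-KLF5 library 1 ITGAV again stood above ITGA5 (27.5% against 25.9%).

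**Figure D3:**
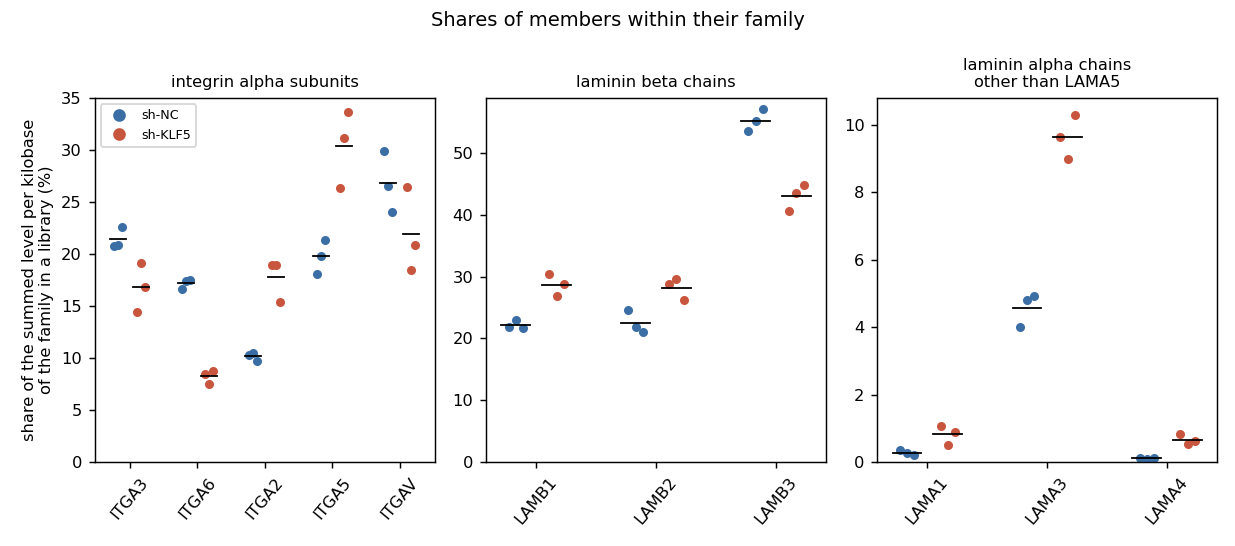
Share of selected members in the summed level per kilobase of exon of their family, in percent, for each of the 3 sh-NC (blue) and 3 sh-KLF5 (red) libraries, with a line at each mean. ITGA6 and LAMB3 take a smaller share in every sh-KLF5 library than in any control, and ITGA5, ITGA2 and LAMA3 take a larger one.

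Within single libraries, the ratio of the collagen receptor subunit ITGA2 to the laminin receptor subunit ITGA6, both per kilobase of exon, was 0.617, 0.604 and 0.556 in sh-NC against 2.24, 2.52 and 1.76 in sh-KLF5. ITGA6 was thus the more abundant transcript in every control library and ITGA2 in every sh-KLF5 library. The ratio of ITGA5 to ITGA6 was 1.15 ± 0.07 in sh-NC against 3.70 ± 0.53 in sh-KLF5 (SD, n = 3), and that of LAMA3 to LAMA5 was 0.0482 ± 0.0055 and 0.109 ± 0.008. These pairs were chosen after their values were seen, so the ratios are given as a description without a test.

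Among the cytoplasmic proteins that link integrins to actin and to signalling, most did not pass the test. Of 34 tested adaptor and hemidesmosome genes, 1 was higher and 5 were lower, against 6.04% and 6.85% of all tested genes. Log2 fold changes ran from -0.75 to 0.62. These lists were chosen with earlier results of these data known, so the counts are a description. RSU1, part of the ILK and PINCH complex, had 1097, 987 and 996 normalized counts in sh-NC against 657, 553 and 626 in sh-KLF5, with no overlap and a log2 fold change of -0.75 (SE 0.12, adjusted p = 0.000438, limma). The tensin TNS4, which binds beta subunit tails, had 3581 ± 278 normalized counts in sh-NC against 2300 ± 410 in sh-KLF5 (SD, n = 3; adjusted p = 0.00306, limma). PTK2, the focal adhesion kinase, fell by 0.51 on the log2 scale (adjusted p = 0.00632). Lower as well were TNS1, at a log2 fold change of -0.73 (adjusted p = 0.0135), and TLN2, at -0.52 (0.0136), whereas DAB2, an adaptor of integrin endocytosis, was higher at 0.62 (0.0172).

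TLN1, the main talin that activates integrins, had a log2 fold change of 0.18 (95% interval -0.11 to 0.46), and VCL, which ties talin to actin, of 0.14 (95% interval -0.09 to 0.37). Both missed the threshold; TLN1 passed it without sh-KLF5 library 1, at 0.31 (adjusted p = 0.0352). ILK, the integrin-linked kinase, had only 12.2 to 27.2 normalized counts, and 78.5% of its exonic bases overlap genes on the opposite strand, most of them TAF10. Of the 4 hemidesmosome genes PLEC, DST, COL17A1 and CD151, 0 passed the test (limma; 0 also at an unadjusted p under 0.05 and with edgeR and DESeq2), at log2 fold changes between -0.30 and 0.22. Calls that single libraries ended were those of TNS1 without sh-NC library 2 (adjusted p = 0.107), TLN2 without sh-NC library 2 or 3 (0.0637 and 0.0731) and DAB2 without sh-NC library 1 or 2 (0.0646 and 0.0911).

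Of 28 tested basement membrane partners and other integrin ligands, 5 were higher and 8 were lower, against the same 6.04% and 6.85%. Of the 8 that were lower, 5 fell by more than 2-fold (3.37% of all tested genes did so), and the largest rise was that of COL7A1. These lists too were chosen with earlier results of these data known, so the counts are a description. NID2, a nidogen that bridges laminin to collagen networks, had 152.7, 130.1 and 116.7 normalized counts in sh-NC against 12.2, 30.1 and 11.0 in sh-KLF5, so that the sh-KLF5 mean was 13.4% of the sh-NC mean. Its log2 fold change was -2.97 (SE 0.33, adjusted p = 1.37e-05, limma), and 30.0% of its exonic bases overlap genes on the opposite strand. NID1, the paralog bound by LAMC1, had 532 ± 28 and 418 ± 49 normalized counts (SD, n = 3) and did not pass (log2 fold change -0.35, adjusted p = 0.0988, limma), although it did without sh-KLF5 library 1 (0.0489).

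FRAS1 and FREM2 form a complex in the basement membrane under epithelia. FRAS1 had 2987, 2914 and 2686 normalized counts in sh-NC against 1745, 1858 and 1835 in sh-KLF5, a log2 fold change of -0.66 (SE 0.11, adjusted p = 0.000563, limma). FREM2 had 48.4, 30.5 and 13.8 normalized counts in sh-NC against 0 reads in every sh-KLF5 library, which is at least 10.3-fold lower against 3 reads per library (adjusted p = 9.69e-05, limma). BCAM, a receptor for LAMA5, had 1271, 1156 and 1321 normalized counts in sh-NC against 657, 1027 and 811 in sh-KLF5, a log2 fold change of -0.61 (adjusted p = 0.0105, limma), and was not past the threshold without sh-NC library 3 (0.0722). COL4A4, a basement membrane collagen chain, had 28.6 or fewer normalized counts in every library (log2 fold change -1.62, adjusted p = 0.0258, limma), and its call was lost without sh-NC library 1 (0.104), 2 (0.155) or 3 (0.0504) or sh-KLF5 library 3 (0.0703).

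COL7A1, the anchoring fibril collagen that binds the hemidesmosome laminin, rose: it had 4207, 4241 and 3469 normalized counts in sh-NC against 6760, 7558 and 5582 in sh-KLF5 (log2 fold change 0.73, SE 0.13, adjusted p = 0.00116, limma). HSPG2, the heparan sulphate proteoglycan perlecan, did not overlap between groups but missed the threshold (log2 fold change 0.39, adjusted p = 0.0739, limma); it passed with DESeq2 (0.0355), without the filter on low counts (0.0114) and without sh-KLF5 library 1 (0.000151). AGRN and NTN4 were also higher and DAG1, a laminin receptor outside the integrin family, was lower; they are named after their values were seen, with log2 fold changes of 0.41, 0.50 and -0.49. Each of these calls was lost in at least 1 fit that left out a library, with adjusted p of up to 0.123 for AGRN, 0.0719 for NTN4 and 0.0503 for DAG1.

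Fibronectin, FN1, the ligand of ITGA5 with ITGB1, rose together with its receptor subunit. It had 16852, 17786 and 16259 normalized counts in sh-NC against 24278, 24971 and 29712 in sh-KLF5, with wide separation. The log2 fold change of FN1 was 0.63 (SE 0.12, adjusted p = 0.00162, limma), against 0.80 for ITGA5. POSTN, a ligand of ITGAV integrins, had 977, 661 and 569 normalized counts in sh-NC against 12.2, 4.85 and 13.0 in sh-KLF5, or 1.37% of the sh-NC mean (log2 fold change -6.12, adjusted p = 2.74e-09, limma). FBN1, a microfibril protein with an RGD motif, fell to 35.9% of the sh-NC mean (adjusted p = 0.00083), and LTBP1, which presents latent TGF-beta to ITGAV integrins, rose by a log2 fold change of 0.59 (0.0348). The LTBP1 call was lost without sh-NC library 1 (0.198), sh-NC library 3 (0.0917) or sh-KLF5 library 2 (0.121).

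**Figure D4:**
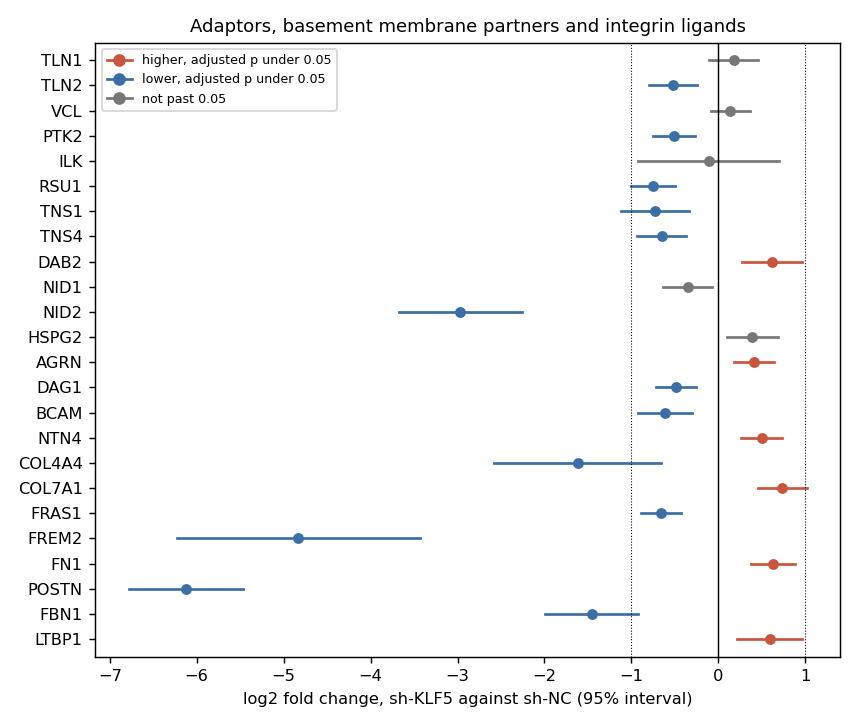
Log2 fold change, sh-KLF5 against sh-NC, of the named adaptor genes, basement membrane partners and integrin ligands, with 95% intervals from limma; colours give the direction of those with an adjusted p under 0.05 and dotted lines mark 1 and -1. The estimates of the adaptors lie between -1 and 1, although the intervals of TNS1 and RSU1 cross -1. Those of POSTN, FREM2, NID2, COL4A4 and FBN1 lie to the left of -1. The value of FREM2 depends on the pseudocount because its sh-KLF5 libraries are at 0.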

How the data were processed

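The authors deposited 1 table of normalized counts (a signal: read counts scaled by a factor of each library) for 6 libraries of polyadenylated RNA. The submitters' processing notes name HISAT2 2.0.5, featureCounts 1.5.0-p3, DESeq2 1.20.0 and hg38; whether counting used strand is not given in the sources used here. The deposited table also holds the authors' group means, log2 fold changes, p-values and adjusted p-values, which were not used, and 0 columns of other samples. Dividing by the smallest value above 0 returned whole reads for 100% of values (tolerance 1e-06), with 15852319 to 17543896 reads per library, so 3 reads are 0.171 to 0.189 CPM. Limits from counts of 0 cover counting error only; the 95% intervals are from limma and rest on the spread between libraries. Coordinates and gene lengths matched GENCODE release 29 for all 29185 genes.

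Genes were filtered with filterByExpr (edgeR 4.0.16, minimum count 10), leaving 15803. log2(normalized count + 1) was tested with limma 3.58.1 (R 4.3.3; trend and robust empirical Bayes), adjusted by Benjamini-Hochberg over all tested genes. Fold changes on this scale understate the change of low genes. On the recovered reads, edgeR called 2090 genes and DESeq2 1.42.0 called 2270, against 2038. The scripts were tested on simulated data. The fold threshold, a log2 fold change above 1 or below -1, came from the methods of the study.

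The members and the lists of adaptors, hemidesmosome genes, basement membrane partners, ligands and cell type markers were chosen with earlier results of these data known. Full values are given for members with an adjusted p under 0.05, for the member with the highest level per length in each role, and for members that changed their call when a library was left out or that overlap another gene. From each partner list at most 6 genes past the threshold are named, by absolute log2 fold change, plus TLN1, PTK2, ILK, VCL, FN1, NID1 and HSPG2; AGRN, NTN4 and DAG1 are named outside this rule. Some genes of the lists are counted in the totals and are not reported here by name.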

Additional observations from a re-analysis of the deposited data

How the results depend on the processing

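Over 9 other settings (edgeR and DESeq2 on the recovered reads, library size alone, TMM factors, pseudocounts of 0.1 and 5, no filter, a filter of 10 or more reads per library, and a replicate block), the count of members that were higher stayed at 7 and that of members that were lower at 5 or 6; the added gene was ITGB8, without the filter and with the block. Past 2-fold, 1 member was higher with a pseudocount of 5, without LAMA1, and 2 were lower with TMM factors and with a pseudocount of 0.1, with ITGB4 added. Adaptor and hemidesmosome genes that were higher numbered 3 with DESeq2, 3 without the filter and 5 with the replicate block, against 1. Basement membrane partners and ligands that were higher numbered 6 with DESeq2 (HSPG2 added), and 7 without the filter and with the block (HSPG2 and TNC added), against 5. Those that were lower numbered 5 with the filter of 10 or more reads, where COL4A4, FREM2 and POSTN were not tested. The cause of the shifts in which the same genes were tested was not tested. The replicate block changed no other call among the members and gave -1.53 for KLF5; deviations of libraries with the same number correlated by 0.059, 0.033 and 0.050, each above the values with other numbers but under 0.1, so the numbers were not taken as pairs.

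With single libraries left out, counts ranged from 4 to 6 for members that were higher (4 without sh-NC library 1 or 3 or sh-KLF5 library 2), 4 to 6 lower, 1 to 3 higher past 2-fold, 1 to 2 lower past 2-fold, 0 to 6 for adaptors higher, 3 to 7 for adaptors lower, 3 to 9 for partners and ligands higher, and 6 to 9 lower. ITGAV ranged from -0.29 to 0.020, LAMC1 from -0.16 to 0.018 and ILK from -0.32 to 0.23. KLF5 ranged from -1.62 to -1.48. Members with 17 reads or fewer in every library, 7 in all, could not be tested at this depth.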
